A study of Mus musculus with 14 samples.

Results

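Gene expression in lung tumor nodules of mice treated with mobocertinib was compared with that in nodules of mice given vehicle. The comparison used 5 of the 14 RNA-seq libraries of the series, the 3 whose titles end in TAK (the labels give TAK-788 as the drug's code) and the 2 whose titles end in Vehicle. All 5 came from total RNA of snap-frozen nodules of C57BL/6 mice with the genotype HER2 Exon20YVMA, and the 3 T-DM1 libraries, set beside them at points, came from mice of the same strain and genotype. The labels call the treatment long term but give neither the promoter that drives the allele nor the dose, the number of days, or the age of the animals. They do not say that each nodule came from a separate mouse, so the p-values reflect the spread among these nodules, part of which may be technical.

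HER2 is a receptor tyrosine kinase of the ERBB family that signals through the RAS-ERK and PI3K-AKT cascades. YVMA names a short in-frame duplication in exon 20 of its kinase domain, seen in human lung adenocarcinoma, that keeps the kinase active. Mobocertinib is a small-molecule inhibitor that binds EGFR and HER2 with exon 20 insertions, and T-DM1 is a HER2 antibody that carries a microtubule poison. The lung epithelium from which such tumors arise holds alveolar type 2 cells that make surfactant, flat alveolar type 1 cells, club cells rich in detoxifying enzymes, and ciliated cells.

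The 5 libraries held 20332008 to 24863818 counts. Both vehicle libraries differed from the other 12 of the series in the lengths of the messenger RNAs they held. This difference coincides with the vehicle group, so it and the treatment cannot be told apart. Messages shorter than 1 kb made up 41.9% and 48.1% of the vehicle total and 17.1% to 20.1% of mobocertinib counts, and those over 5 kb made up 3.85% and 2.67% against 9.28% to 14.5%. The number of genes detected was 20241 and 17279 in vehicle and 21208 to 22848 in mobocertinib. Each gene was therefore tested before and after a correction for transcript length and GC content in every library. A corrected change is relative to the average gene of the same length and GC content. Correction removes only this average trend, not other differences between the libraries. Changes are log2 fold changes of mobocertinib over vehicle ± SE, levels are TMM-normalized CPM (a gene's counts scaled to a fixed library total), and a gene was called at an edgeR adjusted p below 0.05. Brackets after gene names give the library whose omission ended a call.

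Before correction 5905 of 17933 genes were called (32.9%), 3015 higher (16.8%) and 2890 lower (16.1%). Mobocertinib against T-DM1, in the same fit, gave 5 of 17933 genes (0.0279%). After correction 3462 of 14898 were called (23.2%), 1353 higher (9.08%) and 2109 lower (14.2%). Both tests called 2434 genes in the same direction (16.3%), while 7 genes went from higher to lower and 2 from lower to higher. Without vehicle 2 the totals were 3182 before and 1239 after correction, and without mobocertinib 3 they were 4073 and 1891. TPM values, also deposited, divide counts by gene length and scale each library to a fixed total. A gene's length largely divides out between libraries, so TPM does not remove the skew. From TPM values, limma called 9141 of 15722 genes, 8656 higher (94.7% of the calls) and 485 lower, with a median change of 1.11. TPM counts of a list are to be read beside these. The median change over all genes was 0.09 before and −0.07 after correction. In genes under 500 bases the median was −2.12, and in those of 7.5 kb or more it was 1.38, and correction brought these to −0.36 and 0.09. Levels of all 3 mobocertinib libraries lay outside the vehicle range, on one side, in 59.4% of genes.

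**Figure D1:**
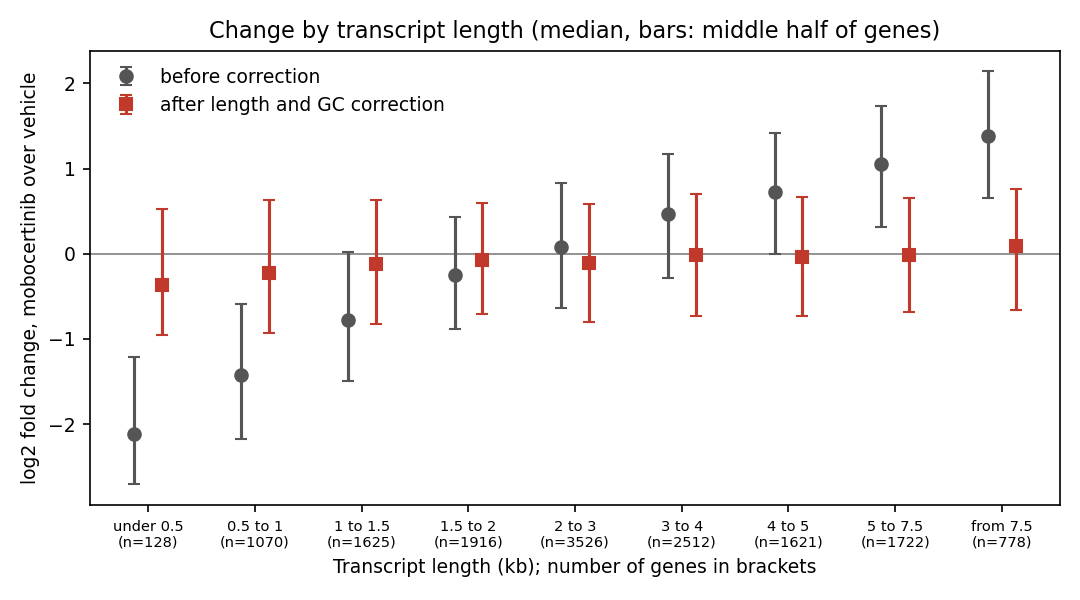
Median log2 fold change of mobocertinib over vehicle (vertical axis) by transcript length in kb (horizontal axis), before and after length and GC correction, with bars over the interquartile range of the genes. The uncorrected medians climb from −2.12 to 1.38 with length, and the corrected ones stay between −0.36 and 0.09.

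The lung label was checked against marker genes, and no defining marker of epithelium or of alveolar type 2 cells was at 0 throughout. The summed level of 6 epithelial markers was 3470.2 and 2917 CPM in vehicle and 1500.4 to 3067 CPM in mobocertinib, so the groups overlapped. The sum of 7 alveolar type 2 markers was 26448 and 25945 CPM in vehicle and 11157 to 18395 CPM in mobocertinib, and 0 of the 7 were called by edgeR before or after correction. Sums of 4 endothelial markers were 72.7 and 101 CPM in vehicle and 276 to 573 CPM in mobocertinib. Of these, 4 were called higher before and 2 after correction. Sums of 4 fibroblast markers were 148 and 139.9 against 261 to 456 CPM, and 0 of the 4 were called in either test. For 3 neutrophil markers the sums were 435 and 551 CPM against 33.6 to 258 CPM, with 1 called lower before and 0 after correction. These sums are not corrected for transcript length, so the length skew enters them. In bulk tissue, fewer cells of a type and less RNA per cell cannot be told apart.

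Many enzymes that modify foreign chemicals rose. Cytochromes P450, flavin monooxygenases and reductases add or expose a polar group on a compound, and in the lung club cells hold much of this activity. Of 27 such enzymes tested, 16 rose before correction and 16 after it, 15 of them in both, and none fell (backgrounds 16.8% and 9.08% higher). Their median change was 2.21 before and 2.22 after correction, and single members reached as low as −2.12 before correction. TPM gave 22 higher and 0 lower, with a median of 3.43 against 1.11 for all genes. Cyp2b10, a P450 induced through the receptor CAR, was at 50.4 and 104 CPM in vehicle and 829, 725 and 1259 CPM in mobocertinib. It rose by 3.60 ± 0.72 (adjusted p = 0.00279) before and 3.60 ± 0.75 (adjusted p = 0.00676) after correction. Cyp4b1, a lung P450 that acts on fatty acids and small aromatic compounds, was at 32.4 and 23.1 CPM in vehicle and 839.9, 187 and 483 CPM in mobocertinib. It rose by 4.18 ± 0.87 (adjusted p = 0.00364) before and 4.19 ± 0.88 (adjusted p = 0.00694) after correction, although mobocertinib 2 stood well below the other two. Ephx1, the microsomal epoxide hydrolase that opens the epoxides made by P450s, was at 151 and 124 CPM in vehicle and 982, 471 and 454 CPM in mobocertinib. It rose by 2.21 ± 0.47 (adjusted p = 0.00392) before and 2.36 ± 0.46 (adjusted p = 0.00478) after correction. In all 3 genes each mobocertinib library lay above both vehicle libraries.

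Other members of this group are known from club cells. Cyp2d22 changed by 2.22 ± 0.50 (adjusted p = 0.00899) after correction, Cbr2, a carbonyl reductase, by 3.67 ± 0.84 (adjusted p = 0.0102), and Aldh1a1, which oxidizes retinal to retinoic acid, by 2.92 ± 0.68 (adjusted p = 0.0108). Cyp2a5, a coumarin hydroxylase with a near-identical copy, was at 11.7 and 59.6 CPM in vehicle and 3795, 204 and 280.2 CPM in mobocertinib, highest in mobocertinib 1. Its change was 5.32 ± 1.75 (adjusted p = 0.0346) before and 5.17 ± 1.70 (adjusted p = 0.0444) after correction, and it is uncertain because reads may be shared with the copy. Of 18 club cell markers 7 rose in both tests and none fell (backgrounds 16.8% and 9.08% higher), with a median of 1.68 before and 2.05 after correction. All 7 are also in the xenobiotic list. The summed level of the club marker genes Scgb1a1, Scgb3a1, Scgb3a2 and Cbr2 overlapped between the groups, at 9193 and 21282 CPM in vehicle and 10807 to 29057 CPM in mobocertinib. T-DM1 nodules were at 304, 108 and 369.6 CPM for Cyp2b10, 192, 70.6 and 262 CPM for Cyp4b1 and 376, 337 and 474 CPM for Ephx1, and no difference of these genes from T-DM1 passed. Leaving out 1 library ended the call before correction of Cbr2 and Cyp2a5 (without vehicle 1 or 2 or mobocertinib 1) and Aldh1a1 (without vehicle 2), with an adjusted p of 0.0651 to 0.145. Such omission also cost the call after correction of Ephx1, Cyp4b1, Cyp2d22, Cbr2 and Aldh1a1 (without vehicle 2) and Cyp2a5 (without vehicle 1 or 2 or mobocertinib 1), with an adjusted p of 0.0506 to 0.168. Xenobiotic enzymes called higher numbered 10 without vehicle 1 or mobocertinib 1 and 5 without vehicle 2 before correction, and 10 without vehicle 1, 1 without vehicle 2 and 9 without mobocertinib 1 after correction. Club cell markers called higher numbered 3 without vehicle 1 or mobocertinib 1 and 2 without vehicle 2 before correction, and 4 without vehicle 1 or mobocertinib 1 and 1 without vehicle 2 after correction. For the club cell list, TPM gave 12 higher and 0 lower, with a median of 3.12 against 1.11 for all genes. The median of the club cell list was 1.10 without mobocertinib 1 before correction.

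**Figure D2:**
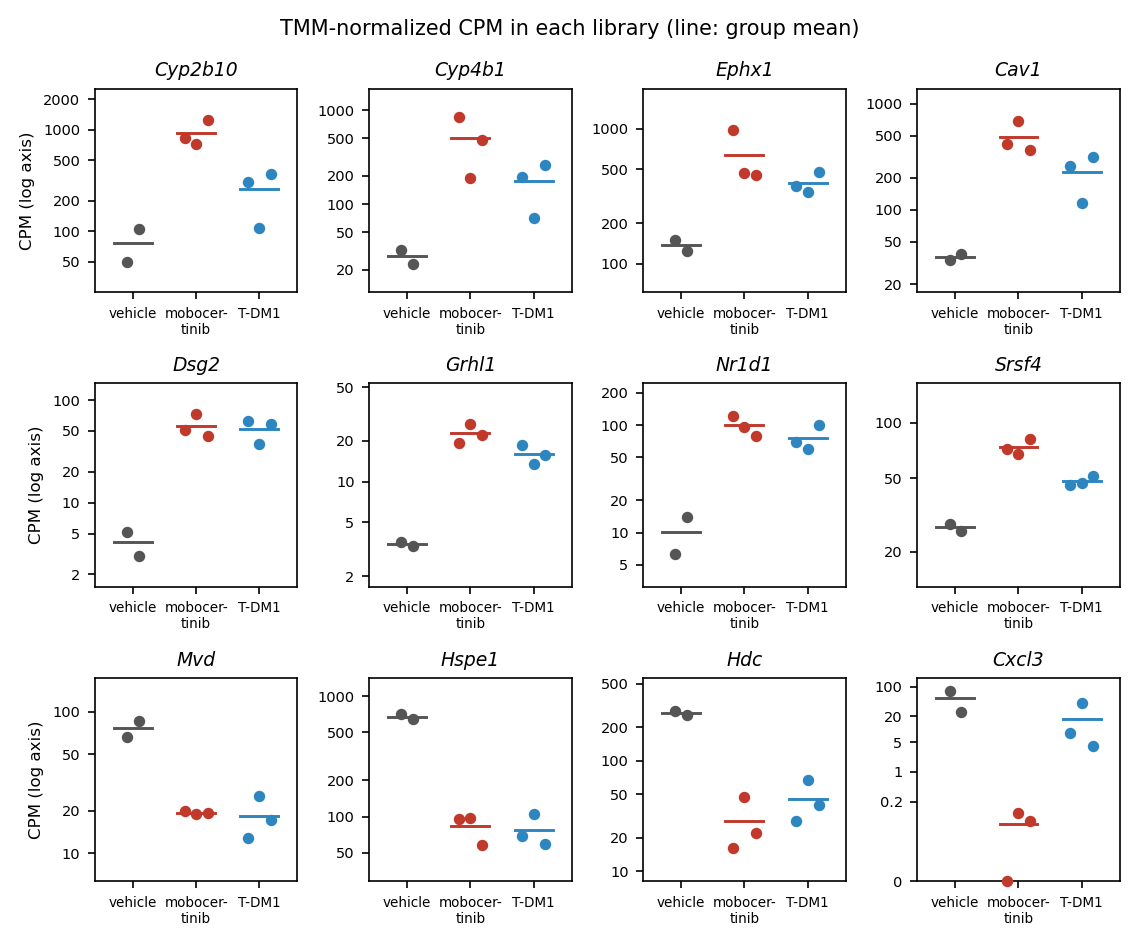
TMM-normalized CPM on log axes of 12 genes in each vehicle, mobocertinib and T-DM1 library, with a line at the group mean (the Cxcl3 axis is linear near 0). In each panel the mobocertinib libraries lie wholly above or wholly below the vehicle ones.

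Transcription factors that set airway and alveolar fate rose or were not called before correction, and 2 fell after it. Of 22 tested, 8 rose and none fell before correction, and 5 rose and 2 fell after it, with a median of 0.70 before and 0.29 after correction. The all-gene backgrounds were 16.8% higher and 16.1% lower before, and 9.08% and 14.2% after correction. Grhl1, a grainyhead factor of epithelial barriers, was at 3.60 and 3.34 CPM in vehicle and 19.4, 26.6 and 22.3 CPM in mobocertinib. It rose by 2.71 ± 0.42 (adjusted p = 0.000718) before and 2.12 ± 0.42 (adjusted p = 0.00548) after correction. Foxa1, a pioneer factor of lung endoderm, was at 15.4 and 20.0 CPM in vehicle and 149.9, 71.5 and 59.7 CPM in mobocertinib. It rose by 2.41 ± 0.56 (adjusted p = 0.00624) before and 1.92 ± 0.55 (adjusted p = 0.0263) after correction. Sox2, a factor of the conducting airway, rose from 4.38 and 7.5 CPM to 48.9, 45.2 and 16.6 CPM, a change of 2.64 ± 0.75 (adjusted p = 0.0181) before and 2.46 ± 0.75 (adjusted p = 0.0338) after correction. Irx2, an Iroquois factor, changed by 1.41 ± 0.30 (adjusted p = 0.00392) before and 1.09 ± 0.31 (adjusted p = 0.024) after correction. Sox9, a factor of distal lung progenitors named here after its values were seen, was at 14.9 and 14.1 CPM in vehicle and 1.05, 4.02 and 0.320 CPM in mobocertinib. It passed only after correction, at −3.79 ± 1.21 (adjusted p = 0.0394) against −3.01 ± 1.15 (adjusted p = 0.06) before. Omission of single libraries ended the call before correction of Sox2 (without vehicle 1 or 2), with an adjusted p of 0.07 to 0.103. It also took away the call after correction of Foxa1 (without vehicle 1 or 2 or mobocertinib 1), Sox2 (without vehicle 1 or 2 or mobocertinib 1 or 2), Irx2 (without vehicle 1 or 2 or mobocertinib 3) and Sox9 (without vehicle 1 or 2 or mobocertinib 1 or 3), with an adjusted p of 0.0636 to 0.156. These factors called higher numbered 1 without vehicle 1, 2 without vehicle 2 or mobocertinib 1 and 3 without mobocertinib 2 after correction. Such factors called lower numbered 0 without vehicle 1 or 2 or mobocertinib 1 or 3 and 1 without mobocertinib 2 after correction. TPM gave 18 higher and 0 lower, with a median of 1.92 against 1.11 for all genes. The median of these factors was 0.47 without vehicle 2 and 0.44 without mobocertinib 3 after correction.

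Several genes of cell-cell junctions and of alveolar type 1 cells rose. Of 22 junction genes, 9 rose and 1 fell before correction, and 5 rose and none fell after it, with a median of 0.87 before and 0.41 after correction. For this list and the alveolar type 1 list, the shares of all genes were 16.8% higher and 16.1% lower before correction. After it they were 9.08% and 14.2%. Dsg2, a desmosomal cadherin, was at 5.22 and 3.05 CPM in vehicle and 50.8, 72.6 and 44.7 CPM in mobocertinib. It rose by 3.75 ± 0.43 (adjusted p = 0.000261) before and 2.75 ± 0.43 (adjusted p = 0.00196) after correction. Tjp1, the tight junction scaffold ZO-1, rose by 2.68 ± 0.56 (adjusted p = 0.00371) before and 1.67 ± 0.43 (adjusted p = 0.0165) after correction, Pard3, a polarity scaffold, by 2.01 ± 0.29 (adjusted p = 0.000479) before and 1.09 ± 0.28 (adjusted p = 0.0166) after correction, and Jup, plakoglobin, by 1.37 ± 0.29 (adjusted p = 0.00407) before and 0.88 ± 0.23 (adjusted p = 0.0189) after correction. Of 18 alveolar type 1 genes, 5 rose before and 4 after correction, and none fell, with a median of 1.38 before and 0.89 after correction. Cav1, the caveolin of alveolar type 1 cells and of endothelium, was at 33.7 and 38.8 CPM in vehicle and 416, 689 and 368 CPM in mobocertinib. It rose by 3.76 ± 0.47 (adjusted p = 0.000295) before and 3.79 ± 0.47 (adjusted p = 0.000954) after correction. The 4 endothelial markers Pecam1, Cdh5, Kdr and Tek all rose before correction and 2 of them after it, and their part in the Cav1 result was not tested. Gprc5a, a retinoid-induced receptor of lung epithelium, changed by 1.75 ± 0.45 (adjusted p = 0.0113) before and 1.64 ± 0.45 (adjusted p = 0.0213) after correction, and Lmo7, an adherens junction protein, by 2.92 ± 0.62 (adjusted p = 0.00382) before and 1.81 ± 0.59 (adjusted p = 0.0421) after correction. The summed level of 6 alveolar type 1 markers, Cav1 among them, overlapped, at 2346 and 2550.2 CPM in vehicle and 2198 to 2770 CPM in mobocertinib. Single libraries decided the call before correction of Gprc5a (without vehicle 2), with an adjusted p of 0.0808. Also not kept was the call after correction of Tjp1 (without vehicle 2 or mobocertinib 3), Pard3 (without vehicle 1 or 2 or mobocertinib 3), Jup (without vehicle 2) and Gprc5a and Lmo7 (without vehicle 1 or 2 or mobocertinib 2 or 3), with an adjusted p of 0.0501 to 0.187. Still called, the log2 change of Tjp1 was 2.63 after correction without vehicle 1. Junction genes called higher numbered 3 without vehicle 1 or mobocertinib 3 and 1 without vehicle 2 after correction. Alveolar type 1 genes called higher numbered 2 without vehicle 2 before correction, and 1 without vehicle 1 or 2 or mobocertinib 2 or 3 after correction. Members of the junction list called lower numbered 0 without vehicle 2 before correction. For the junction list, TPM gave 20 higher and 0 lower, with a median of 2.30 against 1.11 for all genes. For the alveolar type 1 list, TPM gave 13 higher and 0 lower, with a median of 2.48 against 1.11 for all genes. The median of the junction list was 0.27 without mobocertinib 2 after correction.

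Ciliated cell genes depended on which vehicle library was used. Of 27 tested, 5 were called higher before and 1 after correction (backgrounds 16.8% and 9.08% higher), and none lower. In vehicle 2, 17 of the 27 had no count, while none was at 0 in vehicle 1 or in the 3 mobocertinib libraries. Their median level was 1.86 CPM in vehicle 1 and 2.09 to 8.19 CPM in mobocertinib. Rfx3, a regulator of cilia genes, was at 0.720 and 0 CPM in vehicle and 1.99, 5.35 and 4.41 CPM in mobocertinib and passed both tests, at 3.38 ± 1.03 (adjusted p = 0.0247) before and 2.59 ± 0.82 (adjusted p = 0.0389) after correction. Ciliated genes called higher numbered 14 without vehicle 1, 0 without vehicle 2 and 1 without mobocertinib 2 before correction, and 7 without vehicle 1 and 0 without vehicle 2 or mobocertinib 2 or 3 after correction. Without certain libraries, edgeR lost the call before correction of Rfx3 (without vehicle 2), with an adjusted p of 0.0855. Likewise lost was the call after correction of Rfx3 (without vehicle 2 or mobocertinib 2 or 3), with an adjusted p of 0.0668 to 0.136. While the call held, the log2 change of Rfx3 was 9.59 before correction without vehicle 1 and Rfx3 was 9.76 after correction without vehicle 1. Without vehicle 1, the remaining vehicle library held 0 counts of Rfx3, as of 17 of the 27 ciliated genes, so fitted values of this setting are no bounds. TPM gave 8 higher and 0 lower, with a median of 1.39 against 1.11 for all genes. The median of ciliated genes was 8.50 without vehicle 1 before correction, and 8.69 without vehicle 1 and 1.01 without mobocertinib 2 after correction. Upper-quartile factors gave 3 higher and limma-voom 1.

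Kinases and phosphatases of the PI3K-AKT-mTOR pathway, which carries growth signals from HER2, were mostly long transcripts (median 6.40 kb), and most of their rise was lost on correction. Before it, 14 of 26 rose and none fell, with a median of 0.92, and after it 4 rose and 1 fell, with a median of 0.02. Among all genes, 16.8% rose before correction, and 9.08% rose and 14.2% fell after it. Phlpp1, Phlpp2 and Pdpk1 were among those that rose after correction. Phlpp1 and Phlpp2 encode phosphatases that remove an activating phosphate from AKT. Phlpp1 was at 4.74 and 4.23 CPM in vehicle and 16.7, 20.3 and 32.7 CPM in mobocertinib. It rose by 2.37 ± 0.33 (adjusted p = 0.000413) before and 1.14 ± 0.26 (adjusted p = 0.0093) after correction. Phlpp2 rose from 1.74 and 0.817 CPM to 6.03, 8.64 and 12.4 CPM, by 2.81 ± 0.44 (adjusted p = 0.000738) before and 1.43 ± 0.30 (adjusted p = 0.00708) after correction. Pik3r3, a regulatory subunit of PI3K, was at 20.6 and 14.8 CPM in vehicle and 12.7, 14.2 and 12.5 CPM in mobocertinib, and it fell only relative to genes of like length and GC content, by 1.17 ± 0.29 (adjusted p = 0.0133). Removal of a library ended the call after correction of Phlpp2 (without vehicle 2) and Pik3r3 (without vehicle 2 or mobocertinib 3), with an adjusted p of 0.0527 to 0.0671. Pathway members called higher numbered 8 without vehicle 2 before correction, and 1 without vehicle 2 and 2 without mobocertinib 3 after correction. Members of this pathway called lower numbered 0 without vehicle 2 or mobocertinib 3 and 2 without mobocertinib 1 after correction. TPM gave 24 higher and 0 lower, with a median of 1.87 against 1.11 for all genes.

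In the TGF-beta and BMP pathway, some members moved in each direction by CPM, though not from TPM values. After correction they did so in shares near those of all genes. Smad4, the partner that all receptor-activated SMADs need to act on DNA, was at 29.5 and 19.2 CPM in vehicle and 90.8, 75.5 and 90.5 CPM in mobocertinib. It rose by 1.81 ± 0.30 (adjusted p = 0.000972) before and 1.72 ± 0.30 (adjusted p = 0.00291) after correction. Smad6, an inhibitor of BMP signaling, rose by 2.04 ± 0.44 (adjusted p = 0.00409) before and 1.52 ± 0.38 (adjusted p = 0.0152) after correction. Id2, a BMP target that blocks basic helix-loop-helix factors, was at 241 and 332 CPM in vehicle and 49.6, 55.0 and 47.4 CPM in mobocertinib. It fell by 2.50 ± 0.35 (adjusted p = 0.000429) before and 1.53 ± 0.32 (adjusted p = 0.00641) after correction. Tgfbi, a secreted matrix protein induced by TGF-beta, was at 69.9 and 92.6 CPM in vehicle and 29.7, 36.9 and 43.0 CPM in mobocertinib. It fell by 1.15 ± 0.42 (adjusted p = 0.0493) before and 1.59 ± 0.40 (adjusted p = 0.0146) after correction. Over 26 genes, 7 rose and 4 fell before correction and 3 rose and 4 fell after it, and the median was 0.59 before and −0.10 after correction (backgrounds 16.8% higher and 16.1% lower before, 9.08% and 14.2% after). The share that fell before correction was near background as well. TPM gave 18 higher and 0 lower, with a median of 1.86 against 1.11 for all genes. By limma-voom 2 fell. Leaving out 1 library ended the call before correction of Tgfbi (without vehicle 1 or 2 or mobocertinib 1, 2 or 3), with an adjusted p of 0.071 to 0.303. It also took away the call after correction of Smad6 (without vehicle 1 or mobocertinib 3) and Id2 and Tgfbi (without vehicle 2), with an adjusted p of 0.0514 to 0.14. Pathway genes called higher numbered 1 without vehicle 1 after correction. Those called lower numbered 2 without vehicle 1 or mobocertinib 1 or 2 and 1 without vehicle 2 or mobocertinib 3 before correction, and 0 without vehicle 2 and 2 without mobocertinib 1 or 3 after correction. The median of the list was 0.91 without vehicle 1 before correction.

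The YAP and TEAD pathway, in which YAP and TAZ join TEAD factors to turn on growth and matrix genes, had 10 of 18 members higher before correction. After it 5 rose and 2 fell, and the median was 1.24 before and 0.54 after correction. Backgrounds were 16.8% higher before correction, and 9.08% higher and 14.2% lower after it. Tead1 was at 11.9 and 2.15 CPM in vehicle and 53.2, 53.8 and 82.5 CPM in mobocertinib. It rose by 3.16 ± 0.62 (adjusted p = 0.00258) before and 2.0 ± 0.40 (adjusted p = 0.00542) after correction. Crim1, a membrane protein that binds growth factors, was at 8.04 and 4.68 CPM in vehicle and 65.2, 45.6 and 62.7 CPM in mobocertinib. It rose by 3.18 ± 0.39 (adjusted p = 0.000294) before and 2.03 ± 0.35 (adjusted p = 0.00293) after correction. Amotl2, a YAP target that holds YAP in check, rose by 2.23 ± 0.41 (adjusted p = 0.00188) before and 1.5 ± 0.33 (adjusted p = 0.00856) after correction. Axl, a receptor kinase and known YAP target, was at 128 and 135 CPM in vehicle and 74.7, 101 and 100.5 CPM in mobocertinib, and it passed only after correction, at −1.36 ± 0.38 (adjusted p = 0.0232). The TEAD letters GGAATG lay within 250 bases before the start of 10 of 15 members with a RefSeq promoter, against 14.4% of all 27025 promoters, on either strand. The list was drawn up from known pathway members and targets, so this share is no test. Omission of single libraries ended the call after correction of Amotl2 (without vehicle 2) and Axl (without vehicle 2 or mobocertinib 1, 2 or 3), with an adjusted p of 0.0509 to 0.149. Still called, the log2 change of Tead1 was 4.90 before correction without vehicle 1, Tead1 was 3.28 after correction without vehicle 1 and Amotl2 was 2.27 after correction without vehicle 1. YAP and TEAD members called higher numbered 3 without vehicle 2 or mobocertinib 1 after correction. Members of the YAP list called lower numbered 0 without vehicle 2 or mobocertinib 1, 2 or 3 after correction. TPM gave 13 higher and 0 lower, with a median of 2.46 against 1.11 for all genes. The median of this list was 0.26 without mobocertinib 3 after correction.

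Guidance molecules, the ephrins, semaphorins, netrins and slits that steer axons and vessels, moved in both directions after correction, though not from TPM values. Of 36 tested, 16 rose and none fell before it, and 6 rose and 5 fell after it, with a median of 1.26 before and 0.37 after correction. Backgrounds were 16.8% higher and 16.1% lower before correction and 9.08% and 14.2% after it. The share that fell after correction was thus near background. Ntn4, a laminin-binding netrin, was at 8.28 and 9.06 CPM in vehicle and 53.2, 89.0 and 95.2 CPM in mobocertinib. It rose by 3.19 ± 0.42 (adjusted p = 0.000356) before and 2.47 ± 0.39 (adjusted p = 0.00191) after correction. The ephrin ligand Efnb2 rose by 2.50 ± 0.42 (adjusted p = 0.00116) before and 1.57 ± 0.35 (adjusted p = 0.00852) after correction and Sema6a, a membrane semaphorin, by 3.09 ± 0.53 (adjusted p = 0.00123) before and 1.76 ± 0.41 (adjusted p = 0.0107) after correction. Plxnd1, a semaphorin receptor of endothelium, was at 64.5 and 119 CPM in vehicle and 53.9, 64.5 and 66.4 CPM in mobocertinib, with overlapping groups, and it passed only after correction, at −2.0 ± 0.28 (adjusted p = 0.0015). Endothelial and fibroblast marker sums, not corrected for length, were higher in mobocertinib than in vehicle, as given above. Their part in these 3 pathway results was not tested. Single libraries decided the call after correction of Efnb2 (without vehicle 2) and Sema6a (without vehicle 1), with an adjusted p of 0.0519 to 0.0816. While the call held, the log2 change of Plxnd1 was −1.28 after correction without vehicle 2. Guidance genes called higher numbered 10 without vehicle 1 and 7 without vehicle 2 before correction, and 2 without vehicle 2 after correction. Guidance molecules called lower numbered 3 without vehicle 1, 1 without vehicle 2 or mobocertinib 1 or 3 and 2 without mobocertinib 2 after correction. TPM gave 27 higher and 0 lower, with a median of 1.74 against 1.11 for all genes. The median of guidance genes was 0.65 without vehicle 2, 0.23 without mobocertinib 1 and 0.24 without mobocertinib 3 after correction.

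Notch pathway genes, with a median length of 5.03 kb, lost most of their calls on correction. Of 18 tested, 7 rose before and 2 after correction (backgrounds 16.8% and 9.08% higher), none fell, and the median went from 1.08 to 0.06. The 2 were the receptor Notch3, at 2.39 ± 0.33 (adjusted p = 0.000438) before and 0.91 ± 0.29 (adjusted p = 0.0397) after correction, and the coactivator Maml1, at 1.84 ± 0.28 (adjusted p = 0.000612) before and 0.78 ± 0.20 (adjusted p = 0.0163) after correction. Without certain libraries, edgeR lost the call after correction of Notch3 (without vehicle 1 or mobocertinib 1, 2 or 3) and Maml1 (without vehicle 2), with an adjusted p of 0.0527 to 0.212. Still called, the log2 change of Notch3 was 1.58 after correction without vehicle 2. Notch pathway members called higher numbered 1 without vehicle 2 or mobocertinib 1, 2 or 3 after correction. TPM gave 17 higher and 0 lower, with a median of 1.91 against 1.11 for all genes. The median of Notch genes was 0.33 without vehicle 2 after correction.

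Genes of the basement membrane, the collagen and laminin sheet beneath epithelium and around vessels, also lost most of their calls on correction. They are long (median 6.07 kb), and of 24 tested 7 rose before correction and none fell. After it 1 of the 7 remained, while 3 others then fell, with a median of 1.46 before and 0.10 after correction. Background shares were 16.8% higher before, and 9.08% higher and 14.2% lower after correction. The one that remained, Col4a6, a type IV collagen chain, was at 0.660 and 1.78 CPM in vehicle and 19.8, 20.1 and 15.6 CPM in mobocertinib. It changed by 3.93 ± 0.85 (adjusted p = 0.00447) before and 2.64 ± 0.81 (adjusted p = 0.0337) after correction. Hspg2, the heparan sulfate proteoglycan perlecan, was taken as 14176 bases long for correction, against 4796 implied by counts over TPM. It was at 34.0 and 69.7 CPM in vehicle and 40.8, 56.3 and 66.5 CPM in mobocertinib, with overlapping groups. Hspg2 was called only after correction, at −1.83 ± 0.33 (adjusted p = 0.00341), and this call is uncertain. Lamb1, a laminin beta chain, was at 70.4 and 35.2 CPM in vehicle and 47.2, 37.1 and 53.8 CPM in mobocertinib, overlapped likewise, and had a corrected change of −1.29 ± 0.27 (adjusted p = 0.0065). Col18a1, the collagen from which endostatin is cut, was at 153 and 104 CPM in vehicle and 53, 73.0 and 48.6 CPM in mobocertinib and had a corrected change of −2.17 ± 0.50 (adjusted p = 0.0102), with every mobocertinib library below both vehicle libraries. TPM gave 15 higher and 0 lower, with a median of 1.88 against 1.11 for all genes. Not corrected for length, the summed endothelial markers were at 72.7 and 101 CPM in vehicle and 276 to 573 CPM in mobocertinib. Fibroblast marker sums, likewise uncorrected, were at 148 and 139.9 against 261 to 456 CPM, and 0 of those 4 markers were called. The part of either in the rise was not tested. Removal of a library ended the call after correction of Col4a6 (without vehicle 1 or 2 or mobocertinib 1 or 2), Hspg2 (without vehicle 2) and Lamb1 (without vehicle 1), with an adjusted p of 0.0535 to 0.167. Basement membrane genes called higher numbered 2 without vehicle 2 before correction, and 0 without vehicle 1 or 2 or mobocertinib 1 or 2 after correction. Basement membrane components called lower numbered 5 without mobocertinib 1 after correction.

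Among 19 clock genes, the nuclear receptor Nr1d1 (REV-ERB alpha), which represses the activator arm, rose. It was at 6.30 and 14.1 CPM in vehicle and 122, 96.9 and 78.8 CPM in mobocertinib. It rose by 3.28 ± 0.42 (adjusted p = 0.000319) before and 2.89 ± 0.42 (adjusted p = 0.00163) after correction. The repressor Per2 was at 44.4 and 10.9 CPM in vehicle and 12.4, 13.5 and 26.9 CPM in mobocertinib, with overlapping groups, and fell only after correction, by 1.77 ± 0.38 (adjusted p = 0.0076). In all, 7 clock genes rose before correction and 2 after it, and 4 fell after correction only, with a median of 0.73 before and 0.16 after correction. Shares over all genes were 16.8% higher before, and 9.08% higher and 14.2% lower after correction. The hour at which nodules were taken is not in the labels, and its part in these results was not tested. Leaving out 1 library ended the call after correction of Per2 (without vehicle 1), with an adjusted p of 0.149. Clock genes called higher numbered 4 without mobocertinib 3 before correction, and 1 without vehicle 1 or mobocertinib 1 or 3 after correction. Clock repressors and activators called lower numbered 2 without vehicle 1 or mobocertinib 3 and 1 without vehicle 2 or mobocertinib 1 or 2 after correction. TPM gave 14 higher and 0 lower, with a median of 1.53 against 1.11 for all genes. The median of clock genes was 0.39 without vehicle 2 after correction.

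Genes of cholesterol synthesis and uptake, which the SREBP factors turn on when sterols are low, included several that fell by CPM, though not from TPM values. Of 23 tested, 6 fell and 2 rose before correction, and 9 fell and none rose after it, with a median of −0.52 before and −0.78 after correction (backgrounds 16.1% and 14.2% lower). From TPM values none fell and 10 rose, and the list's median was 0.80 where that of all genes was 1.11. Mvd, which makes the isoprene unit, was at 66.3 and 86.6 CPM in vehicle and 20.0, 18.9 and 19.3 CPM in mobocertinib. It fell by 1.98 ± 0.30 (adjusted p = 0.000627) before and 1.86 ± 0.31 (adjusted p = 0.00242) after correction, and the mobocertinib libraries lay within 1.2 CPM of each other. Stard4, a sterol carrier, fell only after correction, by 1.24 ± 0.23 (adjusted p = 0.00367), and its levels overlapped. Dhcr7, the last step to cholesterol, was at 28.8 and 129.6 CPM in vehicle and 16.8, 26.6 and 30.5 CPM in mobocertinib, so that its change of −1.68 ± 0.47 (adjusted p = 0.017) rested on vehicle 2. T-DM1 nodules were at 12.8, 25.5 and 17.2 CPM for Mvd. Omission of single libraries ended the call before correction of Dhcr7 (without vehicle 2 or mobocertinib 1), with an adjusted p of 0.057 to 0.861. Likewise lost was the call after correction of Dhcr7 (without vehicle 2), with an adjusted p of 0.426. Cholesterol genes called lower numbered 2 without vehicle 2 before correction, and 4 without vehicle 2 and 5 without mobocertinib 2 after correction. Sterol genes called higher numbered 0 without vehicle 2 and 1 without mobocertinib 1 or 3 before correction. The median of cholesterol genes was 0.0035 without vehicle 2 before correction, and −0.21 without vehicle 2 after correction.

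Several chaperones of the heat shock response fell by CPM, though mostly not from TPM values. Of 18 listed, cytosolic except for the mitochondrial Hspe1 and Hspd1, 5 fell and 1 rose before correction and 8 fell and 1 rose after it, with a median of −0.61 before and −0.62 after correction (backgrounds 16.8% higher and 16.1% lower before, 9.08% and 14.2% after). From TPM values 1 fell and 11 rose, with a median of 1.37 against the 1.11 of all genes. Hspe1 and Hspd1 encode the paired mitochondrial chaperonins HSP10 and HSP60 and are read in opposite directions from one promoter. Hspe1 was at 706 and 644 CPM in vehicle and 95.5, 97.3 and 58.4 CPM in mobocertinib. It fell by 3.01 ± 0.44 (adjusted p = 0.000497) before and 1.92 ± 0.38 (adjusted p = 0.00536) after correction. Hspd1 was at 137 and 129.9 CPM in vehicle and 95.8, 76.2 and 83.2 CPM in mobocertinib, and it passed only after correction, at −0.83 ± 0.26 (adjusted p = 0.0344). Dnaja1, an HSP70 cochaperone, was at 129 and 120.3 CPM in vehicle and 52.7, 45.2 and 49.8 CPM in mobocertinib. It fell by 1.34 ± 0.27 (adjusted p = 0.00322) before and 1.45 ± 0.26 (adjusted p = 0.00321) after correction. Hsph1, an HSP70 exchange factor, fell by 1.09 ± 0.31 (adjusted p = 0.0175) before and 1.71 ± 0.30 (adjusted p = 0.00309) after correction and Chordc1, an HSP90 cochaperone, by 1.34 ± 0.38 (adjusted p = 0.0169) before and 1.81 ± 0.36 (adjusted p = 0.00539) after correction. Single libraries decided the call before correction of Hsph1 (without vehicle 1 or 2 or mobocertinib 1 or 3) and Chordc1 (without vehicle 2), with an adjusted p of 0.0556 to 0.103. Such omission also cost the call after correction of Hspd1 (without vehicle 2 or mobocertinib 2 or 3) and Chordc1 (without vehicle 2), with an adjusted p of 0.0712 to 0.2. Chaperones called lower numbered 3 without vehicle 1 or mobocertinib 1 and 2 without vehicle 2 before correction, and 3 without vehicle 2 and 4 without mobocertinib 3 after correction. Heat shock genes called higher numbered 0 without vehicle 2 or mobocertinib 1, 2 or 3 before correction, and 0 without vehicle 1 or 2 or mobocertinib 1, 2 or 3 after correction. The median of the chaperone list was −0.35 without vehicle 2 before correction.

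The stretch between Hspe1 and Hspd1 is shown, on the strand of each gene, because a heat shock element was found before both. Capitals mark the match found for that gene, and the 2 matches overlap each other. Heat shock elements, which bind HSF1, were searched 5′ to 3′ on both strands in the 250 bases before the start as GAA, TTC and GAA, or as TTC, GAA and TTC, each with any 2 bases between the triplets, forms that share letters. They lay in 2 of 13 members with a promoter, these 2, and in 0.514% of all 27025 RefSeq promoters (GRCm38.p6). The list was made up of heat shock genes, so these shares are no test.
Hspe1 promoter, chr1:55088019-55088111, plus strand: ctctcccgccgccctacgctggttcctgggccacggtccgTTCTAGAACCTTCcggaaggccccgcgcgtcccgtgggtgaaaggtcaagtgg
Hspd1 promoter, chr1:55088024-55088116, minus strand: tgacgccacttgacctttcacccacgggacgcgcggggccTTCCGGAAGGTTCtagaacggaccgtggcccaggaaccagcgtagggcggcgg

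Some targets of ATF4, the factor made when amino acids run short, and of the unfolded protein response fell by CPM, though mostly not from TPM values. With so few members called, the counts are given as a description beside the shares of all genes (backgrounds 16.8% higher and 16.1% lower before, 9.08% and 14.2% after). Of 20 ATF4 genes, 5 fell and 1 rose before correction, and of 19 after it 5 fell and none rose, with a median of −0.48 before and −0.44 after correction. Mthfd2, a mitochondrial folate enzyme, was at 26.9 and 20.0 CPM in vehicle and 7.47, 6.42 and 6.22 CPM in mobocertinib. It fell by 1.81 ± 0.40 (adjusted p = 0.00472) before and 1.93 ± 0.39 (adjusted p = 0.00543) after correction. Atf4 itself was at 344 and 272 CPM in vehicle and 175, 124 and 117 CPM in mobocertinib. It fell by 1.15 ± 0.34 (adjusted p = 0.0211) before and 1.01 ± 0.31 (adjusted p = 0.0332) after correction, and Phgdh, which starts serine synthesis, by 1.53 ± 0.47 (adjusted p = 0.026) before and 1.5 ± 0.41 (adjusted p = 0.0215) after correction. Of 20 genes of the unfolded protein response, 4 fell and 2 rose before and 5 fell and none rose after correction, with a median of −0.58 before and −0.67 after correction. Manf, a secreted protein of the endoplasmic reticulum, was at 479.7 and 874 CPM in vehicle and 158, 83.7 and 79.6 CPM in mobocertinib. It fell by 2.66 ± 0.35 (adjusted p = 0.000347) before and 1.54 ± 0.33 (adjusted p = 0.00739) after correction. Hspa5, the chaperone BiP, was at 816 and 980.3 CPM in vehicle and 643, 342 and 541 CPM in mobocertinib. It fell by 0.82 ± 0.29 (adjusted p = 0.0467) before and 1.11 ± 0.32 (adjusted p = 0.027) after correction. From TPM values the medians were 0.96 and 1.09 against 1.11 for all genes, 0 and 1 members fell, and 10 and 16 rose. Without certain libraries, edgeR lost the call before correction of Atf4 and Hspa5 (without vehicle 1 or 2 or mobocertinib 2 or 3) and Phgdh (without vehicle 2 or mobocertinib 2 or 3), with an adjusted p of 0.0754 to 0.367. It also took away the call after correction of Atf4 (without vehicle 1 or 2 or mobocertinib 2 or 3), Phgdh and Hspa5 (without vehicle 2 or mobocertinib 2 or 3) and Manf (without vehicle 2), with an adjusted p of 0.0601 to 0.275. ATF4 genes called lower numbered 1 without vehicle 2 or mobocertinib 3 and 3 without mobocertinib 2 before correction, and 3 without vehicle 1, 1 without vehicle 2 or mobocertinib 3 and 2 without mobocertinib 2 after correction. ATF4 targets called higher numbered 4 without vehicle 1 and 2 without mobocertinib 2 before correction. Unfolded protein response genes called lower numbered 1 without vehicle 2, 7 without mobocertinib 1 and 2 without mobocertinib 2 or 3 before correction, and 8 without vehicle 1, 0 without vehicle 2, 9 without mobocertinib 1 and 2 without mobocertinib 2 or 3 after correction. Endoplasmic reticulum genes called higher numbered 1 without vehicle 2 or mobocertinib 1 or 3 and 4 without mobocertinib 2 before correction. The median of ATF4 genes was −0.23 without vehicle 1, −0.31 without vehicle 2 and −0.25 without mobocertinib 3 before correction. The median of the unfolded protein response list was −0.21 without vehicle 2 and −0.38 without mobocertinib 3 before correction, and −0.44 without vehicle 2 after correction. With upper-quartile factors 8 of the latter fell.

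A few lysosomal genes fell by CPM, though not from TPM values, and a few autophagy genes rose, counts given as a description beside the shares of all genes (backgrounds 16.8% higher and 16.1% lower before, 9.08% and 14.2% after). Of 27 genes, 4 rose and 6 fell before and 3 rose and 7 fell after correction, with a median of 0.09 before and −0.38 after correction. Ctsd, the protease cathepsin D, was at 4128 and 15777 CPM in vehicle and 2133, 2187 and 1671 CPM in mobocertinib. It fell by 2.32 ± 0.51 (adjusted p = 0.00491) before and 2.38 ± 0.51 (adjusted p = 0.00717) after correction. Atg9a, a lipid scramblase of the forming autophagosome, was at 4.26 and 0.817 CPM in vehicle and 25.6, 23.9 and 31.8 CPM in mobocertinib. It rose by 3.39 ± 0.58 (adjusted p = 0.0012) before and 2.80 ± 0.50 (adjusted p = 0.00337) after correction. Map1lc3b, the LC3B protein of autophagosome membranes, was at 356 and 362 CPM in vehicle and 508, 308 and 369 CPM in mobocertinib, with overlapping groups, and rose only relative to genes of like length and GC content, by 1.33 ± 0.25 (adjusted p = 0.00401). TPM gave 20 higher and 0 lower, with a median of 1.52 against 1.11 for all genes. Removal of a library ended the call before correction of Ctsd (without vehicle 2), with an adjusted p of 0.201. Also not kept was the call after correction of Ctsd (without vehicle 2), with an adjusted p of 0.177. While the call held, the log2 change of Atg9a was 4.29 after correction without vehicle 1. Lysosomal and autophagy genes called lower numbered 0 without vehicle 2 before correction, and 1 without vehicle 2 and 4 without mobocertinib 2 or 3 after correction. The median of the list was −0.66 without vehicle 1 and −0.018 without vehicle 2 after correction.

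Mitochondrial ribosomal proteins and proteasome subunits, whose transcripts are short (median 1.21 and 1.39 kb), were lower by CPM and, for most members, not from TPM values. Over all genes, 16.8% rose and 16.1% fell before correction, and 9.08% rose and 14.2% fell after it. Of 32 mitochondrial ribosomal proteins, 21 fell before and 13 after correction and none rose, with a median of −1.32 before and −0.47 after correction. Mrpl11 was at 168 and 214 CPM in vehicle and 42.0, 38 and 26.1 CPM in mobocertinib. It fell by 2.44 ± 0.30 (adjusted p = 0.000308) before and 2.91 ± 0.37 (adjusted p = 0.00114) after correction. Mrpl1 fell by 1.68 ± 0.40 (adjusted p = 0.00741) before and 1.80 ± 0.30 (adjusted p = 0.00252) after correction, and Mrpl12, which also binds the mitochondrial RNA polymerase, by 1.97 ± 0.33 (adjusted p = 0.00114) before and 1.42 ± 0.27 (adjusted p = 0.00456) after correction. Of 30 proteasome subunits, 18 fell and 1 rose before and 7 fell and 1 rose after correction, with a median of −0.89 before and −0.18 after correction. Psma5, a subunit of the alpha ring, was at 217 and 211 CPM in vehicle and 71.1, 57.8 and 44.9 CPM in mobocertinib. It fell by 1.88 ± 0.23 (adjusted p = 0.000291) before and 1.28 ± 0.21 (adjusted p = 0.00244) after correction. Psmd11, a lid subunit, was at 52.6 and 34.2 CPM in vehicle and 89.4, 69.1 and 81.2 CPM in mobocertinib. It rose by 0.88 ± 0.25 (adjusted p = 0.0181) before and 1.10 ± 0.26 (adjusted p = 0.0118) after correction. From TPM values 4 mitochondrial ribosomal genes fell and 13 rose, and 0 proteasome genes fell and 16 rose, with medians of 0.31 and 0.68 against 1.11 over all genes. Leaving out 1 library ended the call before correction of Psmd11 (without vehicle 2 or mobocertinib 1), with an adjusted p of 0.052 to 0.0968. Likewise lost was the call after correction of Mrpl12 and Psmd11 (without vehicle 2), with an adjusted p of 0.0554 to 0.111. Mitochondrial ribosomal genes called lower numbered 3 without vehicle 2 and 8 without mobocertinib 3 after correction. Proteasome genes called lower numbered 9 without vehicle 2 and 11 without mobocertinib 2 or 3 before correction, and 1 without vehicle 2 and 2 without mobocertinib 2 or 3 after correction. Proteasome subunits called higher numbered 0 without vehicle 2 or mobocertinib 1 and 2 without mobocertinib 2 before correction, and 0 without vehicle 2 after correction. The median of mitochondrial ribosomal genes was −0.75 without vehicle 1 and −0.27 without vehicle 2 after correction. The median of proteasome genes was −0.59 without vehicle 2 before correction, and −0.52 without vehicle 1 after correction.

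Translation factors fell more often than they rose by CPM. More rose than fell from TPM values, as over all genes, where 8656 of 15722 were higher and 485 lower. Of 31 tested, 14 fell and 7 rose before correction, with a median of −0.56. After it 8 fell and 2 rose, with a median of −0.07. All 8 fell in both tests, and 0 rose in both. Backgrounds were 16.8% higher and 16.1% lower before, and 9.08% and 14.2% after correction. The share that rose after correction was not above background. Eef1g, a subunit of the elongation factor that reloads EF1A, was at 1025 and 1013 CPM in vehicle and 311, 278 and 239.5 CPM in mobocertinib. It fell by 1.88 ± 0.22 (adjusted p = 0.000268) before and 1.89 ± 0.23 (adjusted p = 0.000954) after correction. Its partner Eef1b2 was at 4989 and 4401 CPM in vehicle and 793, 778 and 479 CPM in mobocertinib. It fell by 2.78 ± 0.32 (adjusted p = 0.000261) before and 1.49 ± 0.26 (adjusted p = 0.00303) after correction. Eif2s1, the eIF2 alpha subunit that stress kinases phosphorylate, fell by 1.28 ± 0.29 (adjusted p = 0.00552) before and 1.31 ± 0.25 (adjusted p = 0.00439) after correction. From TPM values 1 fell and 19 rose, with a median of 1.08 against 1.11. T-DM1 nodules were at 347, 400.2 and 335 CPM for Eef1g and 598, 665 and 617 CPM for Eef1b2. Translation factors called higher numbered 1 without vehicle 2 or mobocertinib 2 and 0 without mobocertinib 1 or 3 after correction. The median of translation factors was −0.36 without mobocertinib 1 after correction.

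Splicing and chromatin genes moved in both directions after correction. Those called from TPM values all rose, as did 94.7% of all genes called from TPM. Of 31 splicing factors, 6 rose and 3 fell before and 7 rose and 7 fell after correction, with a median of −0.09 before and −0.03 after correction (backgrounds 16.8% higher and 16.1% lower before, 9.08% and 14.2% after). For splicing factors, TPM gave 27 higher and 0 lower, with a median of 1.35 against 1.11 for all genes. Among the SR proteins, which mark exons, Srsf7 was at 149 and 76.9 CPM in vehicle and 27.0, 33.9 and 24.3 CPM in mobocertinib. It fell by 1.99 ± 0.30 (adjusted p = 0.000612) before and 1.76 ± 0.26 (adjusted p = 0.00163) after correction, and Srsf3 fell by 1.52 ± 0.21 (adjusted p = 0.000413) before and 1.35 ± 0.30 (adjusted p = 0.00862) after correction. Srsf4 was at 28.3 and 26.0 CPM in vehicle and 72.4, 67.6 and 81.5 CPM in mobocertinib. It rose by 1.44 ± 0.20 (adjusted p = 0.000454) before and 1.26 ± 0.19 (adjusted p = 0.00177) after correction. Of 37 chromatin regulators, whose median length was 8.51 kb, 30 rose before correction and none fell, while 7 rose and 3 fell after it, and the median went from 1.42 to 0.11. For chromatin regulators, TPM gave 33 higher and 0 lower, with a median of 2.22 against 1.11 for all genes. Chd1, a nucleosome remodeler, rose by 1.31 ± 0.25 (adjusted p = 0.00212) before and 0.74 ± 0.18 (adjusted p = 0.0122) after correction. The DNA methyltransferase Dnmt3a was at 21.8 and 36.5 CPM in vehicle and 30.6, 42.6 and 30.4 CPM in mobocertinib, with overlapping groups, and turned from 0.25 ± 0.28 (adjusted p = 0.519) before to −1.31 ± 0.32 (adjusted p = 0.0131) after correction. Omission of single libraries ended the call after correction of Srsf3 (without vehicle 2) and Dnmt3a (without vehicle 2 or mobocertinib 3), with an adjusted p of 0.0512 to 0.256. Splicing factors called higher numbered 2 without vehicle 2 before correction, and 1 without vehicle 2 and 4 without mobocertinib 3 after correction. RNA-binding splicing proteins called lower numbered 5 without vehicle 2 before correction, and 3 without vehicle 2 or mobocertinib 2, 4 without mobocertinib 1 and 2 without mobocertinib 3 after correction. Chromatin regulators called higher numbered 3 without vehicle 2 and 4 without mobocertinib 2 or 3 after correction. Chromatin genes called lower numbered 0 without vehicle 2 or mobocertinib 3 after correction. The median of splicing factors was 0.47 without vehicle 1 before correction. With upper-quartile factors 8 splicing factors fell before correction.

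**Figure D3:**
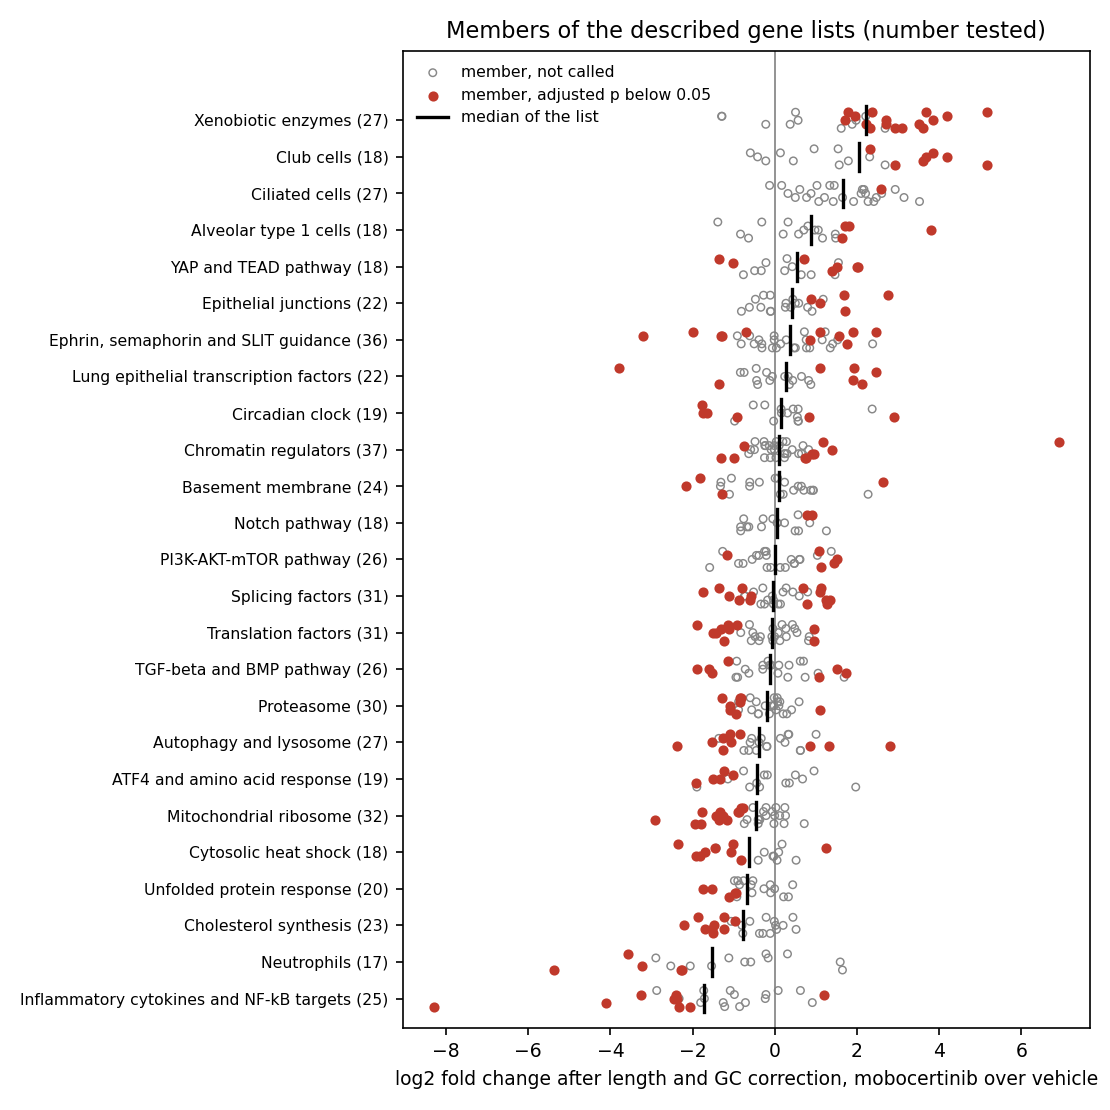
Corrected log2 fold change of mobocertinib over vehicle (horizontal axis) of each tested member of the 25 described lists, ordered by median (black bar), with members at an adjusted p below 0.05 filled. Xenobiotic enzymes lie highest, with a median of 2.22, and inflammatory cytokines lowest, with a median of −1.71.

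Inflammatory cytokines, chemokines and other NF-kB targets had the lowest corrected median of the 25 lists described. Of 25 such genes, 12 fell and 1 rose before and 8 fell and 1 rose after correction, with a median of −2.26 before and −1.71 after correction (backgrounds 16.8% higher and 16.1% lower before, 9.08% and 14.2% after). Cxcl3, a chemokine that draws neutrophils through CXCR2, was at 79.3 and 25.6 CPM in vehicle and 0, 0.111 and 0.0711 CPM in mobocertinib. It fell by 9.55 ± 1.21 (adjusted p = 0.000321) before and 8.28 ± 1.13 (adjusted p = 0.00145) after correction, with 1666 counts over the vehicle libraries and 5 over the mobocertinib libraries. Csf2, the growth factor GM-CSF, was at 33.1 and 31.3 CPM in vehicle and 0.399, 0.923 and 0.782 CPM in mobocertinib. It fell by 5.50 ± 1.18 (adjusted p = 0.0042) before and 4.10 ± 1.04 (adjusted p = 0.0158) after correction. Tnf was at 2.88 and 9.36 CPM in vehicle and 1.10, 1.62 and 0.498 CPM in mobocertinib. It fell by 2.51 ± 0.58 (adjusted p = 0.00634) before and 2.38 ± 0.57 (adjusted p = 0.0123) after correction. Il1rn, the antagonist of the interleukin 1 receptor, was at 24.7 and 59.0 CPM in vehicle and 10.6, 11.3 and 7.14 CPM in mobocertinib. It fell by 2.11 ± 0.56 (adjusted p = 0.0125) before and 2.07 ± 0.51 (adjusted p = 0.0143) after correction. Cxcl1 fell by 4.47 ± 1.12 (adjusted p = 0.00945) before and 3.25 ± 0.99 (adjusted p = 0.0335) after correction, and Cxcl2 passed only before correction, at −3.96 ± 1.15 (adjusted p = 0.0197) before and −2.87 ± 1.03 (adjusted p = 0.0605) after correction. Nfkbia, the inhibitor that NF-kB itself induces, was at 53.3 and 87.5 CPM in vehicle and 153, 95.6 and 156 CPM in mobocertinib and went the other way, at 0.94 ± 0.33 (adjusted p = 0.0431) before and 1.20 ± 0.32 (adjusted p = 0.0194) after correction. Single libraries decided the call before correction of Tnf and Il1rn (without vehicle 2), Cxcl2 (without vehicle 2 or mobocertinib 2) and Nfkbia (without vehicle 1 or mobocertinib 1 or 3), with an adjusted p of 0.0653 to 0.221. It also took away the call after correction of Csf2 (without vehicle 2 or mobocertinib 1), Tnf (without vehicle 2), Il1rn (without vehicle 2 or mobocertinib 3), Cxcl1 (without vehicle 1 or 2 or mobocertinib 1 or 2) and Nfkbia (without vehicle 1 or mobocertinib 1 or 3), with an adjusted p of 0.0501 to 0.224. Still called, the log2 change of Nfkbia was 1.45 before correction without vehicle 2. Inflammatory genes called lower numbered 4 without vehicle 2 before correction, and 1 without vehicle 2, 3 without mobocertinib 1, 5 without mobocertinib 2 and 4 without mobocertinib 3 after correction. NF-kB targets called higher numbered 0 without vehicle 1 or mobocertinib 1 or 3 before correction, and 0 without vehicle 1 or mobocertinib 1 or 3 after correction.

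Cxcl3 also differed from T-DM1, where it was at 8.35, 40.9 and 4.09 CPM, by −7.99 (adjusted p = 0.0361), one of 5 genes of 17933 called in that comparison (0.0279%), which shares the mobocertinib libraries. No other gene named here was called against T-DM1. T-DM1 nodules were at 0.339, 2.23 and 1.89 CPM for Csf2 and 44.9, 32.8 and 37.8 CPM for Il1rn. From TPM values the inflammatory list had 6 members lower and 4 higher, with a median of −0.36 against 1.11.

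NF-kB sites were searched in these promoters because NF-kB drives many of the genes. The list was drawn up partly from known NF-kB targets, so a raised share of sites is no test. The letters GGG, any 2 bases and TTTCC, read on both strands in the 250 bases before the start, lay in 9 of 17 members with a RefSeq promoter (GRCm38.p6), against 1.65% of all 27025 promoters. They are shown in capitals, 5′ to 3′ on the gene's strand, for the chemokines and Il1rn that were lower and for Nfkbia that was higher. Cxcl1 and Cxcl2 hold 2 sites each and the others 1.
Cxcl1 promoter, chr5:90891116-90891223, plus strand: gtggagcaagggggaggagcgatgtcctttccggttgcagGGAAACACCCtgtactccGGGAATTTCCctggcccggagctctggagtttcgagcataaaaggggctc
Cxcl2 promoter, chr5:90903762-90903870, plus strand: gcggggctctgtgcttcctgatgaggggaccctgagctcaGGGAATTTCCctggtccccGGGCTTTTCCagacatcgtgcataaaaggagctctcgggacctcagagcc
Cxcl3 promoter, chr5:90785988-90786077, plus strand: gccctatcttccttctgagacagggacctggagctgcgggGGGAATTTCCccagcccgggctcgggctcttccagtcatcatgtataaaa
Il1rn promoter, chr2:24345280-24345369, plus strand: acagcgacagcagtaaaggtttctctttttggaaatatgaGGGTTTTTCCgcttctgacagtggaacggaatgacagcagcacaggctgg
Nfkbia promoter, chr12:55492648-55492716, minus strand: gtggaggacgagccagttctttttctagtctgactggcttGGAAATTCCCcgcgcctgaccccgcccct
The site thus lay before genes that moved in both directions. In the other searches, the sterol element TCACNCCAC lay in 1 of 16 cholesterol gene promoters (1.22% of all promoters), and the E-box CACGTG in 5 of 16 clock gene promoters (6.86%).

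Several neutrophil genes fell too. Of 17 tested, 8 fell before and 5 after correction and none rose, with a median of −2.48 before and −1.54 after correction (backgrounds 16.1% and 14.2% lower). Of the neutrophil markers S100a8, S100a9 and Csf3r, 1 was called lower before and 0 after correction. Hdc, which makes histamine, was at 281 and 258 CPM in vehicle and 16.3, 46.7 and 22 CPM in mobocertinib. It fell by 3.25 ± 0.54 (adjusted p = 0.001) before and 3.56 ± 0.53 (adjusted p = 0.00175) after correction. Trem1, a receptor that amplifies inflammation, was at 22.6 and 15.2 CPM in vehicle and 3.79, 1.18 and 2.95 CPM in mobocertinib. It fell by 2.84 ± 0.59 (adjusted p = 0.00363) before and 3.23 ± 0.56 (adjusted p = 0.00302) after correction. Il1b was at 45.9 and 38.9 CPM in vehicle and 8.07, 6.24 and 2.74 CPM in mobocertinib. It fell by 2.90 ± 0.54 (adjusted p = 0.00188) before and 2.28 ± 0.44 (adjusted p = 0.00493) after correction. Camp, the cathelicidin peptide of granules, had 1 count over all mobocertinib libraries, and its ratio of vehicle to mobocertinib was 130.0 (95% exact counting interval 22.3 to 5232, counting error only). The leukocyte marker Ptprc was at 51.1 and 34.8 CPM in vehicle and 14.6 to 31.7 CPM in mobocertinib and was not called, and the part of cell number in the inflammatory and neutrophil results was not tested. From TPM values 3 neutrophil genes fell and 1 rose, with a median of −0.66 against 1.11. Without certain libraries, edgeR lost the call after correction of Camp (without vehicle 2 or mobocertinib 1, 2 or 3), with an adjusted p of 0.0541 to 0.0831. Neutrophil genes called lower numbered 5 without vehicle 2 or mobocertinib 3 and 4 without mobocertinib 2 before correction, and 3 without vehicle 2 or mobocertinib 2 or 3 after correction. The median of neutrophil genes was −0.76 without vehicle 2 after correction.

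The largest falls outside these groups were in genes of varied function. Ceacam10, a secreted member of the carcinoembryonic antigen family, was at 338 and 90.0 CPM in vehicle and 0.349, 0.480 and 0.249 CPM in mobocertinib. It fell by 9.20 ± 1.79 (adjusted p = 0.00271) before and 8.32 ± 1.67 (adjusted p = 0.00559) after correction. Fam181a was at 10.3 and 53.8 CPM in vehicle and 0, 0.295 and 0.107 CPM in mobocertinib. It fell by 7.79 ± 1.44 (adjusted p = 0.00188) before and 7.32 ± 1.32 (adjusted p = 0.00341) after correction. Slc26a4, the anion exchanger pendrin of inflamed airway, was at 145 and 119 CPM in vehicle and 0.996, 3.43 and 5.33 CPM in mobocertinib. It fell by 5.33 ± 1.36 (adjusted p = 0.0111) before and 5.86 ± 1.35 (adjusted p = 0.0104) after correction. Ska1, a kinetochore protein, was at 4.80 and 6.46 CPM in vehicle and 0.0498, 0.369 and 0.107 CPM in mobocertinib. It fell by 4.94 ± 0.82 (adjusted p = 0.00102) before and 5.23 ± 0.85 (adjusted p = 0.00226) after correction. Fam83a, which links EGFR to RAF and PI3K, fell by 5.61 ± 1.6 (adjusted p = 0.0185) before and 5.99 ± 1.57 (adjusted p = 0.0179) after correction. Fbp1, an enzyme of gluconeogenesis, and Rnase2a, a ribonuclease of eosinophils, were high in vehicle 1 alone, at 58.8 and 1.11 CPM and 70.8 and 2.01 CPM in vehicle, and their corrected changes were −6.01 ± 1.69 (adjusted p = 0.024) and −5.82 ± 1.49 (adjusted p = 0.0166). T-DM1 nodules varied widely in 3 of these genes, at 1.31, 64.3 and 3.42 CPM for Ceacam10, 0.382, 41.7 and 5.15 CPM for Slc26a4 and 0.763, 52.0 and 2.59 CPM for Fam83a. Removal of a library ended the call before correction of Fam83a (without vehicle 1 or mobocertinib 1 or 3), Fbp1 (without vehicle 1 or mobocertinib 3) and Rnase2a (without vehicle 1), with an adjusted p of 0.0514 to 0.471. Likewise lost was the call after correction of Fam83a (without vehicle 1 or mobocertinib 1 or 3), Fbp1 (without vehicle 1 or mobocertinib 1, 2 or 3) and Rnase2a (without vehicle 1 or mobocertinib 3), with an adjusted p of 0.0503 to 0.588.

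Among the largest rises, several genes had few or no counts in vehicle. Tcf23, a basic helix-loop-helix factor, and Rbm20, a splicing regulator of titin, had 0 counts in both vehicle libraries. Tcf23 was at 2.89, 1.03 and 6.5 CPM in mobocertinib, at least 35.9-fold higher than the 3 counts over the group that 0 allows, and Rbm20 at 1.15, 4.83 and 4.23 CPM, at least 36.4-fold higher. Chst3, a chondroitin sulfotransferase, had 1 count in vehicle and a ratio of 142 (95% exact counting interval 25.4 to 5640.1). Ndn, the imprinted gene necdin, had 3 and a ratio of 67.6 (23 to 329), at 14.3, 2.58 and 5.33 CPM in mobocertinib. Pdpr, the regulator of pyruvate dehydrogenase phosphatase, was at 0.660 and 0 CPM in vehicle and 8.27, 14.4 and 21.8 CPM in mobocertinib. It rose by 5.39 ± 0.86 (adjusted p = 0.000859) before and 4.49 ± 0.70 (adjusted p = 0.00196) after correction. Tmem100, a membrane protein of lung vessels and alveolar type 1 cells, was at 3.18 and 2.01 CPM in vehicle and 19.2, 18.6 and 89.2 CPM in mobocertinib. It rose by 4.02 ± 0.99 (adjusted p = 0.00918) before and 4.48 ± 0.94 (adjusted p = 0.00707) after correction. T-DM1 nodules held Pdpr at 13.1, 9.97 and 9.78 CPM and Tmem100 at 14.8, 13.7 and 31.3 CPM. Leaving out 1 library ended the call before correction of Ndn and Tmem100 (without vehicle 2), with an adjusted p of 0.0658 to 0.0781. Such omission also cost the call after correction of Tcf23, Chst3, Ndn and Tmem100 (without vehicle 2), with an adjusted p of 0.0532 to 0.111. While the call held, the log2 change of Pdpr was 11.51 before correction without vehicle 1 and Pdpr was 11.52 after correction without vehicle 1. Without vehicle 1, the vehicle library left held 0 counts of Pdpr, and its fitted change is no bound.

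Genes that moved against the length skew were few. Of 1198 genes under 1 kb, 19 were called higher before correction (1.59%) and 673 lower (56.2%), and all 19 remained higher after it. Of 2497 genes over 5 kb, 1115 were called higher (44.7%) and 53 lower (2.12%), and all 53 remained lower. On average, correction raised the changes of short genes and lowered those of long ones, so it pushed these calls further the same way. That they remained is therefore no check on them. By the rule for naming, 4 short genes qualified. Counts over TPM implied 1281 bases for Prdx6, above 1 kb, against the 959 used. Prdx6, a peroxiredoxin of lung epithelium with a phospholipase activity that recycles surfactant lipid, was at 679.7 and 999 CPM in vehicle and 6422, 2861 and 4003 CPM in mobocertinib. It rose by 2.40 ± 0.57 (adjusted p = 0.00735) before and 3.32 ± 0.58 (adjusted p = 0.00309) after correction. In T-DM1 it was at 1514, 1001 and 1409 CPM, below every mobocertinib library, but that difference did not pass (adjusted p = 0.238). Tigit, an inhibitory receptor of T and NK cells, was at 0 and 0.223 CPM in vehicle and 8.62, 3.58 and 5.40 CPM in mobocertinib. It had 3 counts in vehicle, a ratio of 56.3 (19.1 to 274), while the summed T cell markers Cd3d, Cd3e and Cd3g overlapped, at 9.78 and 15.6 CPM in vehicle and 4.48 to 13.2 CPM in mobocertinib. Dnajb6, an HSP40 chaperone, was at 23.8 and 19.6 CPM in vehicle and 39.6, 28.9 and 36.0 CPM in mobocertinib. It rose by 0.68 ± 0.22 (adjusted p = 0.0302) before and 2.21 ± 0.28 (adjusted p = 0.001) after correction. Gstp2, a glutathione transferase with a near-identical neighbor and thus uncertain, was at 4.50 and 3.49 CPM in vehicle and 19, 33.0 and 5.58 CPM in mobocertinib. Omission of single libraries ended the call before correction of Prdx6 (without vehicle 1), Dnajb6 (without vehicle 2 or mobocertinib 1 or 3) and Gstp2 (without vehicle 1 or 2 or mobocertinib 2), with an adjusted p of 0.0519 to 0.128. It also took away the call after correction of Gstp2 (without vehicle 2), with an adjusted p of 0.0618.

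Long genes that fell by CPM included Ryr1, the calcium release channel of skeletal muscle, at 3.06 and 5.94 CPM in vehicle and 0.349, 0.406 and 0.320 CPM in mobocertinib, with a change of −3.63 ± 0.80 (adjusted p = 0.00472) before and −5.42 ± 0.91 (adjusted p = 0.00255) after correction. Inhba, the activin A subunit of the TGF-beta family, was at 6.36 and 24.6 CPM in vehicle and 1.10, 2.51 and 1.07 CPM in mobocertinib. It fell by 3.30 ± 0.72 (adjusted p = 0.00443) before and 4.24 ± 0.77 (adjusted p = 0.00354) after correction. St6galnac3, a sialyltransferase, was at 32.5 and 18.4 CPM in vehicle and 3.09, 3.28 and 6.36 CPM in mobocertinib. It fell by 2.58 ± 0.79 (adjusted p = 0.0247) before and 3.78 ± 0.66 (adjusted p = 0.00309) after correction. Counts over TPM implied 2960 bases for St6galnac3 and 4549 for Inhba, under 5 kb, against the 8169 and 6390 used. Their place among long genes, and their corrected changes, are thus uncertain. Srcin1, an inhibitor of SRC, was at 21.4 and 15.5 CPM in vehicle and 2.79, 4.47 and 3.70 CPM in mobocertinib. It fell by 2.34 ± 0.62 (adjusted p = 0.0127) before and 3.66 ± 0.71 (adjusted p = 0.00467) after correction. Cenpf, a kinetochore protein, fell by 2.56 ± 0.76 (adjusted p = 0.0213) before and 3.62 ± 0.62 (adjusted p = 0.00273) after correction, and Veph1, a membrane-binding protein that dampens TGF-beta signals, by 4.03 ± 1.27 (adjusted p = 0.0281) before and 4.99 ± 1.23 (adjusted p = 0.0136) after correction. In all 6 genes every mobocertinib library lay below both vehicle libraries by CPM, which the rule for naming required. On the log2(TPM + 1) scale the changes of Inhba and St6galnac3 turned positive, at 0.52 and 0.38, below the 1.11 of all genes. Single libraries decided the call before correction of Inhba (without vehicle 2), St6galnac3 (without vehicle 1 or 2 or mobocertinib 1 or 2), Srcin1 (without vehicle 1), Cenpf (without vehicle 1 or mobocertinib 1 or 3) and Veph1 (without vehicle 1 or 2 or mobocertinib 1, 2 or 3), with an adjusted p of 0.0527 to 0.276. Also not kept was the call after correction of Inhba (without vehicle 2) and Veph1 (without vehicle 2 or mobocertinib 3), with an adjusted p of 0.0515 to 0.0581.

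**Figure D4:**
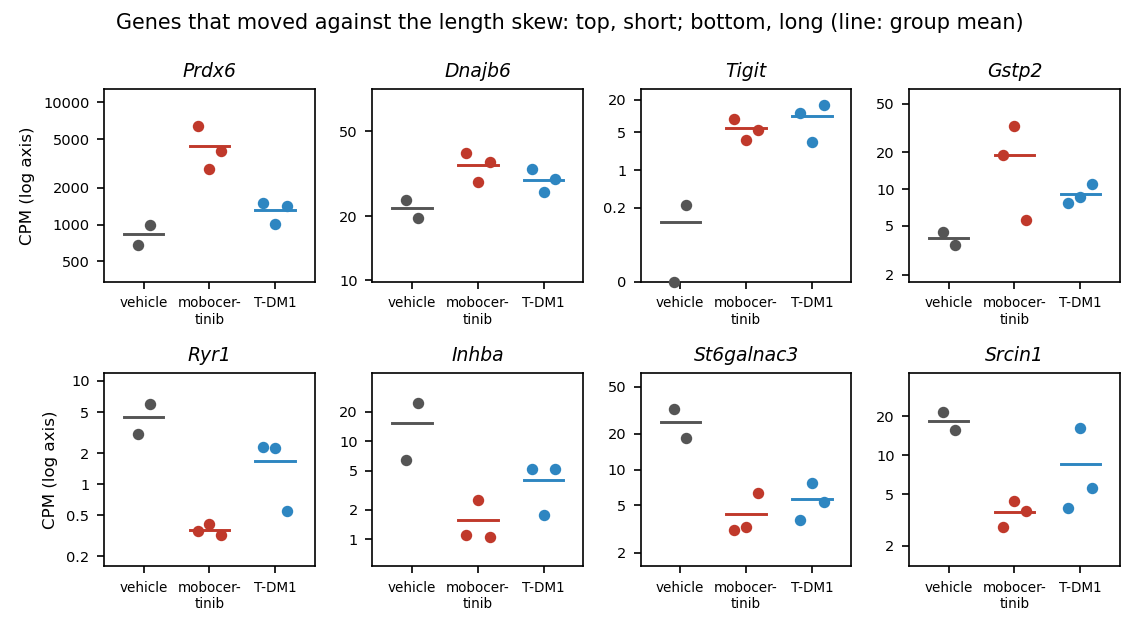
TMM-normalized CPM on log axes in each vehicle, mobocertinib and T-DM1 library of 4 short genes that rose (top) and 4 long genes that fell by CPM (bottom), with a line at the group mean (the Tigit axis is linear near 0). Every mobocertinib library lies above the vehicle ones in the top row and below them in the bottom row, as the rule for naming required.

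On the mm10 build, Cyp2b10 lies on chromosome 7 (25897620 to 25926624), Cav1 on 6 (17306335 to 17341452), Mvd on 8 (122433601 to 122443422), Hspe1 on 1 (55088132 to 55091307), Cxcl3 on 5 (90786103 to 90789600) and Prdx6 on 1 (161240112 to 161251219). Whether counting used strand is not stated, which leaves genes that share exon sequence with a neighbor uncertain. Among those named, the shared part was 43.0% in Srsf4, 34.4% in Ctsd, 32.6% in Atg9a and 24.3% in Pik3r3, and 6.03% to 13.1% in Notch3, Manf, Dnaja1, Hspe1, Eef1b2, Mrpl12, Nr1d1 and Csf2.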

How the data were processed

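RNA of 14 nodule libraries was measured, and the 5 of the vehicle and mobocertinib groups were compared. The deposited counts are whole numbers per gene for 55291 symbols, and the authors also deposited TPM values for 47606 genes. The submitters' processing notes name STAR, RSEM and mm10, with no version, role or strand setting given. All members and gene lists were chosen with earlier results of these data known.

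One edgeR 4.0.16 fit (R 4.3.3) covered all 14 libraries, which share an estimate of spread with 9 residual degrees of freedom, using TMM factors, filterByExpr, the robust quasi-likelihood F-test and Benjamini-Hochberg adjustment. The SE is the change divided by the square root of F. For the corrected test, log2 CPM minus the gene's mean was fitted in each library by natural splines (5 degrees of freedom) of transcript length and GC content, and the fit entered as an offset for protein-coding genes with 1 annotation entry in GENCODE M21. The transcript taken was the one whose length was nearest that implied by counts over TPM, within 2-fold for 95.3% of the 13934 genes with an implied length.

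Named genes were the 12 largest rises and 12 largest falls after correction, called in both tests with a mean log2 CPM of at least 1, no overlap between groups and under 5% of exon bases shared. Predicted genes, pseudogenes, immune receptor segments and the genes of an exclusion list were passed over. Added to these were, for every list described, up to 4 called members with the smallest corrected p, and up to 8 short risers (under 1 kb) and 8 long fallers (over 5 kb), called before correction, under the same filters. The text gives a part of them, a few are not reported here, and Hspd1, Nfkbia, Cxcl1, Cxcl2 and Sox9, which the rule does not name, were chosen after their values were seen. Of 57 lists, 22 with at least 4 members called in one direction after correction are described, as are 3 (Notch, ciliated cells, basement membrane) with at least 5 calls before it, fewer than 1 in 3 of which held after it. The other 32 reached neither. Within groups, every pair of libraries was further apart than counting noise allows, with a chi-square of 126 to 233 per degree of freedom. Against 0 counts a fold uses 3 counts over the group as floor. Alternatives used limma 3.58.1 (voom, and log2(TPM + 1) with a pseudocount of 1), DESeq2 1.42.0, other factors and filters, and each library left out. Both procedures were tested on simulated data.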

Additional observations from a re-analysis of the deposited data

How the results depend on the processing

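Before correction, 5905 genes were called (51.1% higher), and the count stayed within 1.5 times of this with RLE or upper-quartile factors, no or a stricter filter, the 5 libraries alone, limma-voom, DESeq2 and no robust estimation. Against a 1.5-fold change glmTreat called 3839, limma-trend on log2(TPM + 1) 9141 (8656 higher and 485 lower, 291 of them in the opposite direction to the edgeR call), no low-count filter 3063 higher and 1965 lower, and length and GC correction 3462 (39.1% higher). The median of all genes was 1.11 from TPM. After correction, 1457 passed glmTreat and 2062 passed with the 5 libraries alone. Leaving out 1 library gave 3182 to 5954 calls before and 1239 to 3602 after correction, the lowest without vehicle 2 in both, where the lone vehicle library is assumed to vary like the other groups. Omitting mobocertinib 3 gave 1891 after correction. Of the named genes, 94 were called before and 105 after correction, of which 69 and 55 were still called without vehicle 2. The longest transcript of each gene, chosen after seeing the data, gave 3514 calls. From TPM, changes turned positive for Axl (1.09), Plxnd1 (1.23), Tgfbi (0.50), Inhba (0.52), Pik3r3 (1.35), Stard4 (0.63), Dhcr7 (0.29), Atf4 (0.50), Hspa5 (1.07), Hsph1 (0.44), Dnaja1 (1.44), Chordc1 (0.35), Hspd1 (1.03), Ctsd (0.021), Eif2s1 (0.39), Mrpl1 (0.096), Per2 (0.81), St6galnac3 (0.38), Lamb1 (0.84) and Col18a1 (0.56), of which those under 1.11 were below the median of all genes. On correction, changes turned for Dnmt3a (−1.31) and Hspg2 (−1.83), and with upper-quartile factors for Hspg2 (−0.063). With each library left out, changes before correction spanned 0 in Plxnd1 −0.92 to 0.048, Map1lc3b −0.084 to 0.36, Dnmt3a −0.048 to 0.78, Per2 −1.22 to 0.72, Hspg2 −0.32 to 0.80 and Lamb1 −0.50 to 0.42. Those that turned were Dnmt3a, Per2, Hspg2 and Lamb1 without vehicle 1, Plxnd1 without vehicle 2, Map1lc3b without mobocertinib 1, Lamb1 without mobocertinib 2 and Hspg2 without mobocertinib 3. The causes were not tested. No paired analysis was possible because replicate numbers only follow the accession order. At this depth, genes at a few counts per library have bounds rather than folds.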

Other observations

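The other 32 gene lists had at most 3 members called in one direction after correction. Over all genes, 16.8% were higher and 16.1% lower before correction, and 9.08% and 14.2% after it. Counts near these shares are no result about the members of a list. Among cell type lists, 2 of 20 alveolar type 2 genes fell in both tests, with a median of −1.16 before and −1.32 after correction. Of 19 genes of monocytes and interstitial macrophages, 5 fell and 1 rose before and 3 fell and 1 rose after correction, and of 14 dendritic cell genes 2 fell before and 3 after it. Of 9 genes of lymphatic endothelium, 3 rose and 1 fell before correction, and of 8 tested after it 3 rose and none fell, with a median of 1.20.

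In metabolism, 6 of 16 genes of fatty acid oxidation rose before and 3 after correction, when 1 fell. Glycolysis and hypoxia lists had 2 and 3 members lower after correction, with medians of −0.17 and −0.25. Among pathways, 5 of 26 WNT genes rose before correction and 3 after it, all 3 in both, and 1 fell after it. For 18 NRF2 antioxidant genes, 2 rose and 2 fell in each test, and of 21 p53 targets 2 rose in both and none fell after correction. The leaving out of single libraries was not examined for these lists.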
